A study of Mus musculus with 24 samples.

Results

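The genes described here encode RNA helicases and the proteins that deadenylate, decap, degrade or translationally repress messenger RNA. They were chosen by gene symbol from a table of RNA peaks recovered with STAU2, a double-stranded RNA-binding protein that transports and localises messenger RNA in neurons and in dividing neural progenitors. The symbols searched were those of the Ddx and Dhx helicases, CCR4-NOT subunits, Xrn and exosome exonucleases, Upf and Smg factors of nonsense-mediated decay, decapping factors and Lsm proteins, Argonaute and Tnrc6 proteins, the FMRP family, Pumilio and CPEB proteins, YTH proteins and cytoplasmic poly(A)-binding proteins. Rows that the table places in an intron or between genes were left out, as were rows without a gene. This gave 93 genes with 189 peaks, out of 7702 genes with 13749 peaks in the same kind of rows. The 93 genes comprised 22 DEAD-box helicases with 37 peaks, 13 DEAH-box and related helicases with 21 peaks, 12 decapping and Lsm genes with 29 peaks, 10 CCR4-NOT genes with 21 peaks and 10 exonuclease and exosome genes with 21 peaks. They further held 9 genes of nonsense-mediated decay with 24 peaks, 5 genes of microRNA silencing with 8 peaks, 5 YTH genes with 6 peaks, 3 Pumilio and CPEB genes with 4 peaks, 2 FMRP family genes with 8 peaks and 2 poly(A)-binding protein genes with 10 peaks. Fxr1, Ago1, Tnrc6c, Pum2, Cpeb1, Cpeb3, Cpeb4, Cnot1 and Dcp2 have no row of this kind in the table and were not analysed here.

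The study followed STAU2-bound RNA over corticogenesis in C57BL/6 mouse embryos, with 3 immunoprecipitations and 3 inputs labelled per stage. The 4 stages run from E11.5 through E13.5 and E15.5 to E17.5. All groups are untreated brain cortex of the same strain, and no genetic change is labelled. The table holds 12 columns of counts whose names fit both an immunoprecipitation and its input at the same stage and number. Since the rows are peaks, the columns were taken to be the immunoprecipitations, and all values depend on that. Inputs were not analysed here, so a stage difference may reflect how much of an RNA was present, how much of it STAU2 bound, or both. In bulk tissue, fewer cells of a type and less RNA per cell cannot be told apart. The labels do not say whether the 3 libraries of a stage come from separate litters or embryos, so each p-value reflects the spread among these libraries alone, which may be technical.

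Messenger RNA decay usually begins with shortening of the poly(A) tail by the CCR4-NOT complex, which displaces poly(A)-binding proteins. The Lsm ring and its partners then promote decapping, after which Xrn1 degrades the RNA in the 5′ to 3′ direction, while the exosome works from the 3′ end. MicroRNA-loaded Argonautes, FMRP, Pumilio, CPEB and YTH proteins bind chosen transcripts and hold back their translation or hand them to these enzymes. Fmr1, which encodes FMRP, is the gene silenced in fragile X syndrome.

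Of the 189 member peaks, the table places 80 (42.3%) in a 3′ UTR, 94 (49.7%) in an exon and 15 (7.94%) in a 5′ UTR. Over all 13749 peaks these shares were 48.7%, 43.0% and 8.26%. Against the GENCODE transcripts of GRCm38, 23 of the 80 peaks called 3′ UTR and 5 of the 15 called 5′ UTR lie in coding exons. A total of 50 members (53.8%) had 2 or more peaks, against 43.2% of all genes. The poly(A)-binding protein genes stood out by sequence. PABPC1 is known to bind an A-rich tract in the 5′ UTR of its own messenger RNA and to repress its translation, and the 5′ UTR peaks of Pabpc1 and Pabpc4 both hold such a tract. The 30-base window richest in A within each peak is shown 5′ to 3′ on the strand of the gene, with A in capitals, as read from GENCODE transcripts of GRCm38.
Pabpc1, chr15:36608840-36608869, minus strand: gAAAAAAcccAAAAAAAAtttAcAAAAAAA
Pabpc4, chr4:123282883-123282912, plus strand: AAAAAccttAAAAAAAAAAAAAAgAAAAgA
The Pabpc1 window holds 22 A and the Pabpc4 window 24 A out of 30. Of the 716 peaks in GENCODE 5′ UTRs with at least 30 bases, 9 (1.257%) hold a window with 22 or more, and the median of the richest windows was 9. The other 7 belong to Nova1, Stag2, Zfp827, Lmo4, Nr2f2, Ccnd2 and Exoc3. The cut-off is that of Pabpc1 itself, so the share is a description.

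A second set of sequences shows sites that Pumilio proteins are known to bind. The motif TGTANATA was searched on the transcribed strand only, since the peaks are RNA. It was found in 7 of 57 member peaks in GENCODE 3′ UTRs (12.28%), against 8.56% of all 5232 such peaks, whose median length was 317 bases against 336 bases for the members. The 4 windows below are those in helicase and exonuclease genes whose values are given later, with the motif in capitals.
Ddx5, chr11:106780472-106780501, minus strand: accttttatttTGTAAATAattatggaaat
Dhx36, chr3:62470315-62470344, minus strand: ttatcctctgtTGTAGATAtgtccacactt
Exosc7, chr9:123136041-123136070, plus strand: tgacactggttTGTATATAtttctcttaat
Xrn1, chr9:96011811-96011840, plus strand: aaatgaatacaTGTAAATAtacttcagtgt
The other 3 are in Ddx3y, Ddx46 and Dhx35. The Xrn1 peak with the motif, chr9:96011423-96011857, lies far upstream of the other Xrn1 peaks, which start at chr9:96054809 and chr9:96057301. Its place in a 3′ UTR may thus hold for only some transcripts of the gene. The cytoplasmic polyadenylation element TTTTAT, which CPEB proteins recognise, was in 28.07% of the member 3′ UTR peaks, against 25.25% of all, and the AU-rich pentamer ATTTA was in 40.35%, against 37.25%. These shares lie close to the background of all 3′ UTR peaks. A match is a string of letters and not a measured binding site, and the motifs may overlap each other or themselves.

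The counts in the rows used ran between 1954160 and 4693793 per library, at most 34.1% of all counts in the table, with intergenic rows, whose values are all even, halved. The 3 E11.5 libraries stood apart: these rows held at most 19.3% of their counts, and a single gene, Lars2, held 6.12% to 11.9% of the counts used there, against at most 2.32% for any gene in the other 9 libraries. Levels are given as CPM, counts scaled to a common library size after edgeR's TMM normalization. This scaling is meant to limit the pull of such genes. Scaling by total counts instead moved the median log2 change of all genes to 0.435 between E13.5 and E11.5, against 0.081 with TMM, and to 0.341 between E17.5 and E11.5, against 0.037. Which scaling is closer to the RNA recovered was not tested. Markers of cell types moved with stage as well. The 7 of 12 progenitor markers with a row summed to 1238 to 1878 CPM at E17.5, against 4141 to 5252 CPM at E11.5. Their sum was already 1216 to 1922 CPM at E13.5 and 1371 to 1642 CPM at E15.5, so the decline was not steady. At E17.5 against E11.5, 5 of the 7 were lower by edgeR and 1 was higher. The 10 of 12 neuron markers with a row summed to 7623 to 8309 CPM at E17.5, against 595.5 to 643.2 CPM at E11.5. Of these 10, 9 were higher and 0 lower. All 6 markers of meninges and mesenchyme had a row, and they summed to 4.31 to 5.96 CPM at E17.5, against 374.2 to 448.9 CPM at E11.5. The red cell list had 1 of 6 markers with a row and the vascular and microglial list 2 of 6. These sums are levels in the immunoprecipitates and do not measure tissue make-up directly. Whether tissue make-up has a part in the changes of the members was not tested.

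All 93 members passed the filter on low counts. Together they held 3.81% to 4.15% of the counts used in the E11.5 libraries. This share was 2.01% to 2.08% in the E13.5 libraries, 1.52% to 1.71% in the E15.5 libraries and 1.19% to 1.41% in the E17.5 libraries. Most of this decline was a single gene. Pabpc1, the main cytoplasmic poly(A)-binding protein, supplied 68.2% to 72.0% of the member counts in the E11.5 libraries, 49.4% to 55.5% in the E13.5 libraries, 38.6% to 40.4% in the E15.5 libraries and 29.6% to 31.5% in the E17.5 libraries. The other 92 members held 0.819% to 0.991% of the counts used at E17.5, against 1.16% to 1.23% at E11.5. Per kilobase of peak, Pabpc1 ranked 44 of 7702 genes by its mean level over the 12 libraries, with 5097 CPM per kb. It was followed by Ddx5 with 2646, Lsm12 with 1830, Ythdf2 with 820.0, Lsm14a with 652.1, Exosc3 with 607.4, Ddx21 with 599.2, Ddx6 with 522.3, Cnot7 with 433.7 and Pabpc4 with 353.9 CPM per kb. The median member had 85.4 CPM per kb, against 69.0 for all genes, and 55 of 93 members lay above that median. Peak width here is the span on the genome and can include intron bases. In the peak of Exosc3, for example, 83 of 145 bases are exonic. The order and the medians were not computed per exonic base and may differ on that measure.

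Between the end stages, 21 members were higher and 26 lower at E17.5 than at E11.5 by edgeR's quasi-likelihood test with Benjamini-Hochberg adjustment over 7651 genes at 0.05. Of all genes tested, 29.8% were higher and 28.8% lower, so the members' shares, 22.58% and 27.96%, lay below and close to that background. The median log2 change of the members was -0.10, against 0.04 for all genes. In 57 of 93 members (61.29%) the 3 libraries of one stage lay wholly above the 3 of the other, against 63.1% of all genes tested. With scaling by total counts, the split was 32 higher and 18 lower, against 2870 higher and 1761 lower of all 7651 genes tested. Of the 47 calls, 33 held under each alternative run, namely 16 higher and 17 lower. The other 14 were lost without at least 1 library or with another setting, and most of them are named as such below. In a joint test of the 4 stages, 36 of 93 members (38.71%) differed by stage, against 54.9% of all genes tested. Of these 36, 17 were highest at E11.5 and 18 at E17.5, and Smg1 was highest at E15.5. Of the 4197 genes that differed by stage over the whole table, 40.34% were highest at E11.5 and 41.36% at E17.5. A further 10.15% were highest at E13.5 and 8.15% at E15.5, so the end stages were the most frequent over all genes too. Mean levels fell at each of the 3 steps in 16 of the 36 members and rose at each step in 12. The step patterns were not counted over all genes, so they cannot be called particular to the members.

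**Figure D1:**
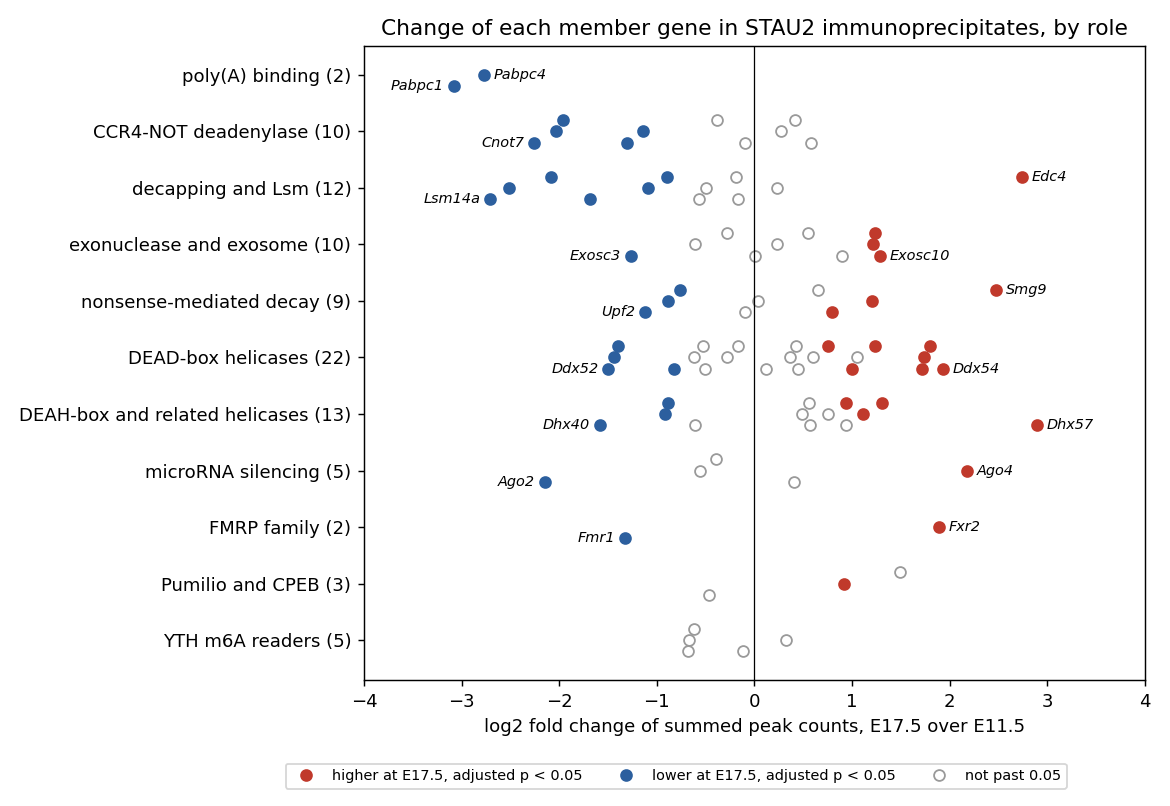
Log2 fold change of each of the 93 member genes, E17.5 over E11.5 (horizontal axis), in rows by role with the number of genes in parentheses. Filled points passed an adjusted p of 0.05 and the outermost gene on each side is named where it passed. Both poly(A)-binding protein genes lie left of 0. Of the 21 genes higher at E17.5, 11 are among the 35 helicases.

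The poly(A)-binding protein genes had the largest falls among the members. Pabpc1 had 4075, 4099 and 3587 CPM in the E17.5 libraries, against 31024, 32532 and 36037 CPM in the E11.5 libraries. The lowest E11.5 library was thus well above the highest E17.5 library, and the intermediate stages lay between, at 9673 to 10975 CPM at E13.5 and 5436 to 6252 CPM at E15.5. The log2 change was -3.08 ± 0.28 (SE, adjusted p = 1.3e-07), an 8.47-fold lower level. Pabpc4, a second cytoplasmic poly(A)-binding protein, had 131, 124 and 143 CPM at E17.5, against 1008, 935 and 778 CPM at E11.5, a log2 change of -2.77 ± 0.25 (adjusted p = 1.28e-07). Both were already lower at E13.5 than at E11.5, by a log2 change of -1.69 ± 0.27 for Pabpc1 and -1.92 ± 0.24 for Pabpc4. Pabpc1 has pseudogene copies, and how multiply mapping reads were treated is not stated in the sources used, so its level is uncertain.

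Every one of the 7 peaks of Pabpc1 fell, with log2 changes between -3.47 and -2.87 at E17.5 against E11.5. The 5′ UTR peak with the A-rich tract, chr15:36608252-36608945, averaged 1158 ± 365 CPM at E17.5 and 9631 ± 2833 CPM at E11.5 (SD, n = 3 each), and its change of -3.06 ± 0.40 lies within the range of the 6 exon peaks. In Pabpc4 the 5′ UTR peak with its tract, chr4:123282775-123282919, averaged 37.0 ± 17.7 CPM at E17.5 and 476.2 ± 93.7 CPM at E11.5, a log2 change of -3.68 ± 0.45. The remaining 2 peaks of Pabpc4, at the 3′ end, changed by -2.18 ± 0.36 and -2.05 ± 0.36. A test of whether the peaks of 1 gene changed unequally gave an adjusted p of 0.101 for Pabpc4, so this inequality did not pass.

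**Figure D2:**
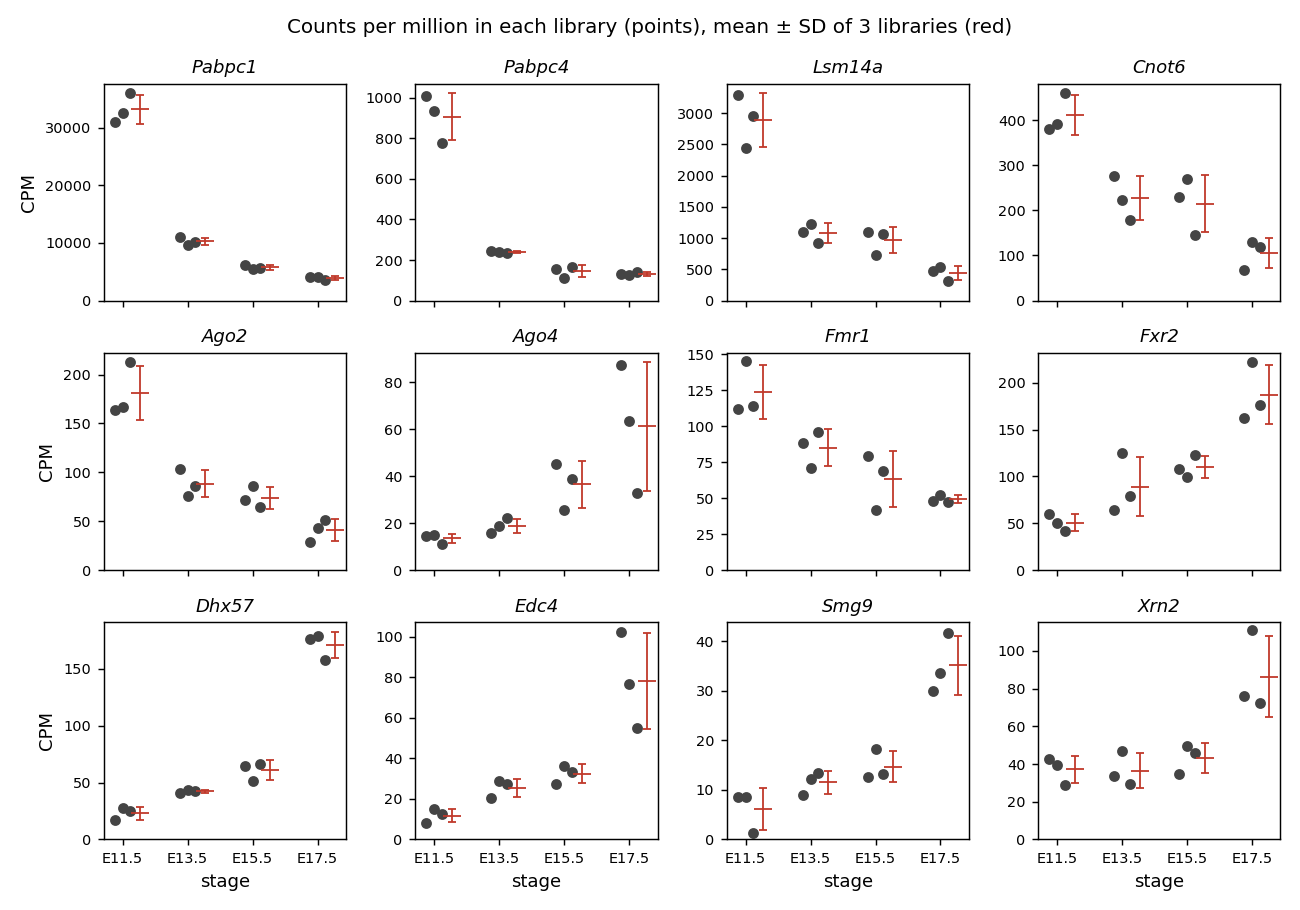
CPM (vertical axis, from 0) of 12 members in each of the 12 libraries by stage (horizontal axis), with points for libraries and red bars for the mean ± SD of 3 libraries. Pabpc1, Pabpc4, Lsm14a, Cnot6, Ago2 and Fmr1 have their lowest stage mean at E17.5, and Ago4, Fxr2, Dhx57, Edc4, Smg9 and Xrn2 their highest.

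Of the 10 CCR4-NOT genes, 5 (50%) were lower at E17.5 than at E11.5 and 0 were higher by edgeR with TMM scaling. Of all genes tested, 28.8% were lower and 29.8% higher. An unadjusted p under 0.05 was reached by 5 of the 10, against 4832 of all 7651 genes tested. DESeq2 gave 5 lower and 0 higher. With scaling by total counts, 4 were lower and 2 higher (Cnot2 and Cnot10), against 1761 lower and 2870 higher of all 7651 genes tested. Cnot7, a catalytic subunit of the complex, had 254, 125 and 175 CPM at E17.5, against 1029, 1110.1 and 502 CPM at E11.5, a log2 change of -2.25 ± 0.34. One of the 3 peaks summed for Cnot7, chr8:40509817-40510176, shares its interval with a 3′ UTR row of Zdhhc2 on the other strand. The changes of the 3 peaks ranged from -2.84 to -0.59. Cnot6, a catalytic subunit of the other type, had 67.2, 129.6 and 119.8 CPM at E17.5, against 381, 390.2 and 461 CPM at E11.5 (-1.96 ± 0.30). Cnot9, which links the complex to RNA-binding repressors, had 14.6 to 23.6 CPM at E17.5, against 63.9 to 86.4 CPM at E11.5 (-2.03 ± 0.34). One of the 2 peaks of Cnot9 shares its interval with an intron row of Usp37 on the other strand. The libraries of the 2 stages did not overlap for any of these 3 genes. Cnot11 and Cnot6l also fell, but leaving out E11.5 replicate 1 ended the call of Cnot11, at an adjusted p of 0.0698, and 4 settings ended that of Cnot6l, at up to 0.137. Cnot8, the paralogue of Cnot7, was among the members with the smallest stage effect, at 43.3, 45.8 and 43.3 CPM at E17.5, against 65.8, 28.4 and 46.3 CPM at E11.5 (-0.09 ± 0.34).

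Of the 12 decapping and Lsm genes, 6 (50%) were lower and 1 (8.33%) was higher, against 28.8% and 29.8% of all genes tested. With scaling by total counts, 5 were lower and 1 was higher, against 1761 lower and 2870 higher of all 7651 genes tested. Lsm14a, a P-body protein that represses translation, had 476, 538 and 316 CPM at E17.5, against 3289, 2438 and 2953 CPM at E11.5 (-2.71 ± 0.29, adjusted p = 8.92e-07). All 5 of its peaks fell, by log2 changes of -3.16 to -2.40. Its paralogue Lsm14b had 29.5 to 38.8 CPM at E17.5, against 32.7 to 57.4 CPM at E11.5, with overlapping libraries (-0.50 ± 0.29, adjusted p = 0.153). Lsm12, an Lsm-domain protein, had 222 to 491 CPM at E17.5, against 1818 to 2307 CPM at E11.5 (-2.52 ± 0.32). Lsm1, the subunit that defines the cytoplasmic ring that activates decapping, changed by -1.68 ± 0.36. Lsm2, which the cytoplasmic ring shares with the nuclear ring on U6 RNA, changed by -2.08 ± 0.26. Lsm4, another shared subunit, changed by -1.09 ± 0.30. Lsm6 changed by -0.90 ± 0.37, and its call was lost in 9 settings with an adjusted p of up to 0.166.

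Edc4, the scaffold of the decapping complex, went the other way. It had 102, 76.8 and 55.0 CPM at E17.5, against 8.17, 14.8 and 12.3 CPM at E11.5, so the groups were far apart (2.74 ± 0.33, adjusted p = 2.75e-06). Its 1 peak is in the 3′ UTR, chr8:105892808-105893212. The decapping cofactor Dcp1a had 17.07 to 29.2 CPM at E17.5 and 29.3 to 39.5 CPM at E11.5, which did not pass (-0.56 ± 0.30, adjusted p = 0.117).

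The exonuclease and exosome genes had 3 of 10 members (30%) higher and 1 (10%) lower at E17.5 than at E11.5, against 29.8% and 28.8% of all genes tested. With scaling by total counts, 5 were higher and 1 lower, with Exosc5 and Exosc9 added to the higher ones. That scaling gave 2870 higher and 1761 lower of all 7651 genes tested. Xrn2, the nuclear 5′ to 3′ exonuclease, had 76.1, 111 and 72.2 CPM at E17.5, against 42.8, 39.5 and 29.0 CPM at E11.5 (1.22 ± 0.29). Xrn1, its cytoplasmic counterpart, had 28.4 to 37.4 CPM at E17.5 and 36.4 to 75.3 CPM at E11.5, and did not pass (-0.61 ± 0.32, adjusted p = 0.111). Exosc10, a catalytic subunit of the nuclear exosome, had 62.3 to 75.9 CPM at E17.5, against 26.5 to 29.3 CPM at E11.5 (1.28 ± 0.27), and Exosc7, of the exosome ring, changed by 1.24 ± 0.29. Exosc3, of the exosome cap, fell (-1.27 ± 0.33). Exosc1, another cap subunit, had one of the smallest stage effects, at 108 to 189 CPM at E17.5 and 166 to 227 CPM at E11.5 (-0.28 ± 0.29).

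Genes of nonsense-mediated decay split evenly, with 3 higher and 3 lower of 9 (33.33% each) at E17.5 against E11.5. These shares lay near those of all genes tested, 29.8% higher and 28.8% lower. Smg9, a regulatory subunit of the Smg1 kinase complex, had 30.1, 33.6 and 41.8 CPM at E17.5, against 8.65, 8.64 and 1.23 CPM at E11.5 (2.48 ± 0.45). Upf1, the central helicase of the pathway, had 97.3 to 111 CPM at E17.5, against 34.6 to 63.4 CPM at E11.5 (1.21 ± 0.34). One of its 2 peaks shares its interval with a Cers1 row on the other strand, and the change of the other peak was 1.42 ± 0.43. Upf2, the adaptor of Upf1, had 41.1 to 53.5 CPM at E17.5, against 89.5 to 117 CPM at E11.5 (-1.12 ± 0.27). The libraries of Smg9, Upf1 and Upf2 did not overlap between these stages. The calls of Upf3b (0.80 ± 0.25) and Upf3a (-0.88 ± 0.35) were each lost in at least 1 setting: Upf3b without E11.5 replicate 2 (adjusted p = 0.0525) and Upf3a in 5 settings (up to 0.197). With scaling by total counts, 4 genes of this role were higher and 1 was lower, and with DESeq2 4 were higher and 3 lower. Over all genes tested, scaling by total counts gave 2870 higher and 1761 lower, and DESeq2 2330 higher and 2285 lower. Smg1, the kinase, had 72.2 to 119 CPM at E17.5, against 46.6 to 79.0 CPM at E11.5 (0.65 ± 0.27, adjusted p = 0.0503), which did not pass.

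Of the 35 helicases, 11 (31.43%) were higher and 7 (20%) lower at E17.5 than at E11.5, against 29.8% and 28.8% of all genes tested, so the share that was higher lay near the background. Their median log2 change was 0.49. Dhx57, a DEAH-box helicase, showed the largest rise of all members, with 176, 179 and 158 CPM at E17.5, against 16.8, 27.8 and 24.7 CPM at E11.5 (2.90 ± 0.27, adjusted p = 1.75e-07). All 3 of its peaks rose, by log2 changes of 2.15 to 3.51. The one with the smallest change shares its interval with Gm50087 on the other strand. Dhx9, which unwinds RNA and DNA duplexes, had 495 to 654 CPM at E17.5, against 213 to 331 CPM at E11.5 (1.11 ± 0.27). Dhx38, a splicing helicase, changed by 1.31 ± 0.37.

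Among the 22 DEAD-box helicases, 7 (31.82%) were higher and 4 (18.18%) lower, against 29.8% and 28.8% of all genes tested. Ddx1, part of the tRNA ligase complex, had 233, 115 and 244 CPM at E17.5, against 53.8, 71.6 and 44.4 CPM at E11.5 (1.80 ± 0.33). Ddx54 (1.93 ± 0.53), Ddx55 (1.74 ± 0.45), Ddx49 (1.72 ± 0.35) and Ddx27 (1.24 ± 0.27) also rose. Ddx54 was at low levels, 6.42 to 14.1 CPM at E17.5 against 1.23 to 4.32 CPM at E11.5. The only peak of Ddx49 shares its interval with Homer3 on the other strand. Ddx52 fell (-1.50 ± 0.38), as did the nucleolar helicase Ddx50 (-1.40 ± 0.33). Ddx21, the paralogue of Ddx50, had 64.8 to 76.8 CPM at E17.5 and 77.8 to 131 CPM at E11.5 (-0.61 ± 0.34, adjusted p = 0.123).

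Ddx6, the helicase that joins CCR4-NOT to translational repression and decapping in P bodies, was lower at E17.5 as well. It had 304, 264 and 204 CPM at E17.5, against 652, 1048 and 400.5 CPM at E11.5, without overlap (-1.44 ± 0.36, adjusted p = 0.00264). The 2 peaks of Ddx6, both in the 3′ UTR, changed by -1.35 ± 0.37 and -1.44 ± 0.43. Ddx5, the most abundant helicase per kilobase, had 1226, 1879 and 1040.3 CPM at E17.5, against 600.4, 865 and 996 CPM at E11.5 (0.75 ± 0.31, adjusted p = 0.0483), and this call was lost in 8 settings, with an adjusted p of up to 0.237. The calls of Ddx10, Ddx19a, Dhx29, Dhx30, Dhx32 and Dhx40 were each lost without at least 1 library too. Dhx36, which resolves G-quadruplexes, had 82.3 to 158 CPM at E17.5 and 62.4 to 117 CPM at E11.5 (0.56 ± 0.36), and did not pass. Ddx41 and the Y-linked Ddx3y were among the members with the smallest stage effect. With scaling by total counts, the DEAH-box helicases had 7 genes higher and 0 lower, and the DEAD-box helicases 9 higher and 3 lower. That scaling gave 2870 higher and 1761 lower of all 7651 genes tested.

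In the FMRP family, Fmr1 was lower and Fxr2 higher at E17.5 than at E11.5. Fmr1 had 48.2, 52.2 and 47.6 CPM at E17.5, against 112, 146 and 114 CPM at E11.5 (-1.33 ± 0.27, adjusted p = 0.00053). Fxr2, its autosomal paralogue, had 163, 223 and 177 CPM at E17.5, against 59.6, 50.01 and 41.3 CPM at E11.5 (1.89 ± 0.29, adjusted p = 2.74e-05). Neither gene's libraries overlapped between these stages. All 4 peaks of Fxr2 rose, by log2 changes of 1.59 to 2.58. All 4 peaks of Fmr1 had log2 changes below 0, from -2.005 to -0.259, and 3 of them passed.

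Among the Argonautes, Ago2 was lower and Ago4 higher at E17.5 than at E11.5. Ago2, the only Argonaute of mammals with strong slicing activity, had 28.4, 43.2 and 51.2 CPM at E17.5, against 163, 167 and 213 CPM at E11.5 (-2.14 ± 0.28, adjusted p = 5.19e-06). Ago4 had 87.2, 63.6 and 32.7 CPM at E17.5, against 14.4, 14.8 and 11.11 CPM at E11.5 (2.18 ± 0.37, adjusted p = 8.78e-05). The E17.5 libraries of Ago4 varied widely, and the lowest of them was still above each E11.5 library. Ago3 (0.41 ± 0.47) and the Tnrc6a (-0.40 ± 0.34) and Tnrc6b (-0.56 ± 0.30) scaffolds of silencing did not pass.

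Of the 5 YTH genes, the readers of N6-methyladenosine, 0 passed at E17.5 against E11.5 with edgeR. Over all genes tested, 29.8% were higher and 28.8% lower. An unadjusted p under 0.05 was reached by 1 of the 5, against 4832 of all 7651 genes tested. DESeq2 called 1 of the 5 lower. Ythdf2, which brings methylated RNA to decay, had 236 to 319 CPM at E17.5 and 304 to 462 CPM at E11.5 (-0.62 ± 0.27, adjusted p = 0.0562). Log2 changes of the other 4 lay between -0.68 ± 0.35 for Ythdf3 and 0.32 ± 0.28 for Ythdc1. Cpeb2, which binds cytoplasmic polyadenylation elements, had 5.15 to 7.30 CPM at E17.5 and 0.96 to 4.94 CPM at E11.5 (1.49 ± 0.66, adjusted p = 0.0618), and did not pass. Pum3, a nuclear protein with Pumilio repeats, changed by 0.92 ± 0.35, but this was lost in 5 settings, with an adjusted p of up to 0.27.

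By peak, 37 of 188 member peaks tested were higher and 57 lower at E17.5 than at E11.5, against 26.4% and 26.2% of all 13656 peaks tested. By the table's locations, 20 of 79 member peaks in 3′ UTRs (25.32%) were higher and 18 (22.78%) lower, against 30.07% and 23.38% of all 3′ UTR peaks. Of 94 in exons, 16 (17.02%) were higher and 31 (32.98%) lower, against 23.83% and 27.41% of all exon peaks. Of 15 in 5′ UTRs, 1 (6.67%) was higher and 8 (53.33%) were lower, against 18.37% and 36.82% of all 5′ UTR peaks. The median log2 change was 0.13 for the 3′ UTR peaks, -0.37 for exon peaks and -1.29 for 5′ UTR peaks. Over all peaks the medians were 0.16, -0.04 and -0.51, so the order by location was that of the whole table. The median GC content was 51.1% in member peaks that were higher, 45.6% in those that were lower and 48.4% in those that did not pass. Over all peaks it was 52.2%, 48.15% and 49.6%. The part of base composition in these changes was not tested.

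Of the 50 members with 2 or more peaks tested, 42 (84.0%) had log2 changes of 1 sign in all their peaks, against 82.51% of all 3310 genes with 2 or more. In 13 (26.0%) every peak was lower by the test, against 18.82% of those genes, and in 5 (10%) every peak was higher, against 18.73%. Peaks called in both directions occurred in 0 of the 50, against 0.91%. The test of unequal change within a gene called 1 of the 50, Cnot7, against 2.72% of all 3310 genes tested, and 6 of the 50 had an unadjusted p under 0.05. In Cnot7 (adjusted p = 0.0283) the 5′ UTR peak chr8:40511388-40511698 averaged 53.4 ± 24.0 CPM at E17.5 and 383.6 ± 118 CPM at E11.5 (-2.84 ± 0.40). The exon peak chr8:40495467-40495777 averaged 8.07 ± 0.57 CPM at E17.5 and 12.1 ± 4.66 CPM at E11.5 (-0.59 ± 0.44). GENCODE places this low exon peak in a noncoding transcript of the gene. The third peak of Cnot7 shares its interval with Zdhhc2 on the other strand. Leaving out 1 library ended the call of Cnot7, at an adjusted p of 0.138 for E17.5 replicate 2, 0.135 for E17.5 replicate 3, 0.0714 for E11.5 replicate 1 and 0.141 for E11.5 replicate 2.

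**Figure D3:**
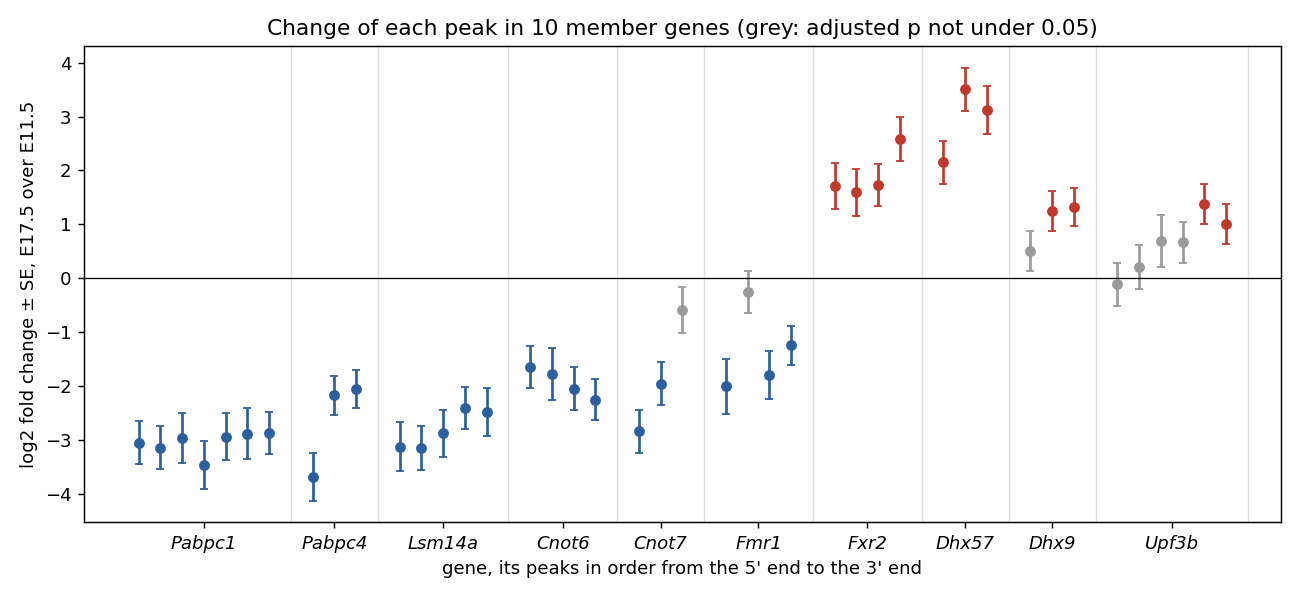
Log2 fold change ± SE of each peak, E17.5 over E11.5 (vertical axis), for 10 members with their peaks in order along the gene (horizontal axis), blue and red where the adjusted p was under 0.05. All 7 peaks of Pabpc1 and all 5 of Lsm14a lie below 0, all 4 of Fxr2 and all 3 of Dhx57 above 0, and the 3 peaks of Cnot7 differ among themselves.

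At E13.5, 9 members were lower and 3 higher than at E11.5, against 11.3% and 14.0% of all genes tested, and the median log2 change was -0.11. With scaling by total counts, 6 were lower and 15 higher, against 442 lower and 1966 higher of all 7651 genes tested. Helicases were 6 of those 15, and they make up 35 of the 93 members. The 5 calls that held under each alternative run were all lower: Lsm12 (-2.09 ± 0.31), Pabpc4, Pabpc1, Lsm14a (-1.42 ± 0.28) and Cnot7 (-1.25 ± 0.33). Lsm12 had 342, 626 and 482 CPM at E13.5, against 1818, 2039 and 2307 CPM at E11.5 and its E15.5 libraries, at 453 to 561 CPM, lay among those of E13.5. Lsm1 (-1.33 ± 0.35), Ago2 (-1.03 ± 0.27), Cnot6 (-0.86 ± 0.29) and Lsm2 (-0.84 ± 0.25) were lower too. The 3 higher genes, Edc4 (1.13 ± 0.33), Dhx57 (0.89 ± 0.26) and Fxr2 (0.82 ± 0.28), all lost their call without E11.5 replicate 1, with which Cnot6 and Lsm1 were lost as well, at adjusted p values of 0.0507 to 0.101. Without E13.5 replicate 2, Cnot6, Edc4, Fxr2 and Lsm2 were lost, at 0.0523 to 0.227. By peak, 22 members' peaks were lower and 1 higher of 188, against 8.37% and 9.42% of all peaks, and the 1 was an exon peak of Dhx57.

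Between E15.5 and E13.5, edgeR called 0 of 93 members in each direction, against 0.196% higher and 0.549% lower of all genes tested. An unadjusted p under 0.05 was reached by 4 members, against 751 of all 7651 genes tested. DESeq2 called 1 member, Pabpc1, lower. Its level was 5763 ± 432 CPM at E15.5 and 10270 ± 657 CPM at E13.5 (SD, n = 3 each), without overlap, a log2 change of -0.83 ± 0.26 with an edgeR adjusted p of 0.211. The 3 member peaks with the smallest p also belonged to Pabpc4 and Pabpc1, but 0 of 188 peaks passed, with 9 at an unadjusted p under 0.05, against 0.0659% higher and 0.293% lower of all peaks.

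At the last step, 9 members were higher and 6 lower at E17.5 than at E15.5, against 9.74% and 12.2% of all genes tested, with a median log2 change of -0.10. The 4 calls that held under each alternative run were Dhx57 (1.49 ± 0.25), Ddx1 (1.30 ± 0.32), Edc4 (1.26 ± 0.29) and Lsm14a (-1.12 ± 0.28). Dhx57 had 64.9, 51.1 and 66.8 CPM at E15.5, well below its E17.5 libraries given above. The other higher members were Smg9 (1.25 ± 0.39), Xrn2 (1.00 ± 0.28), Exosc10 (0.88 ± 0.26), Ddx27 (0.87 ± 0.27), Exosc7 (0.84 ± 0.27) and Exosc9 (0.84 ± 0.28). The other lower members were Cnot6 (-1.03 ± 0.30), Cnot9 (-0.99 ± 0.33), Lsm2 (-0.86 ± 0.26), Ago2 (-0.85 ± 0.27) and Dcp1a (-0.84 ± 0.29). Exonuclease and exosome genes made up 4 of the 9 higher members, but 2 of 6 with scaling by total counts, which lost Ddx27, Exosc7 and Exosc9 (adjusted p of 0.0579 to 0.0741). These 11 calls depended on single libraries: 10 were lost without E15.5 replicate 1 (adjusted p of 0.0515 to 0.11), 9 without E15.5 replicate 2 (0.0778 to 0.183), 4 without E15.5 replicate 3 (0.0506 to 0.096), and 6 without each of the 3 E17.5 libraries in turn (0.053 to 0.205). By peak, 12 of 188 were higher and 3 lower, against 6.71% and 7.62% of all peaks, and leaving out any 1 of the 6 libraries of these stages left 3 to 7 higher.

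The first and the last step compare different libraries, but the fit shares its scaling and its estimate of spread over all 12, so their calls are not independent. Cnot6 and Fxr2 lost their call at the first step without E15.5 replicate 1, and Dcp1a lost its call at the last step without any 1 of the E11.5 libraries. Of the 9 members lower at the first step, Ago2, Cnot6, Lsm14a and Lsm2 were among the 6 lower at the last step, a share of 44.4% of the first list and 66.7% of the second. Of the 3 members higher at the first step, Dhx57 and Edc4 were among the 9 higher at the last, 66.7% of the first list and 22.2% of the second. Of the members called at both steps, 0 changed direction. The same overlap was not counted over all genes, so these shares cannot be called particular to the members. Pabpc1, Pabpc4 and Lsm12 had their largest fall at the first step.

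**Figure D4:**
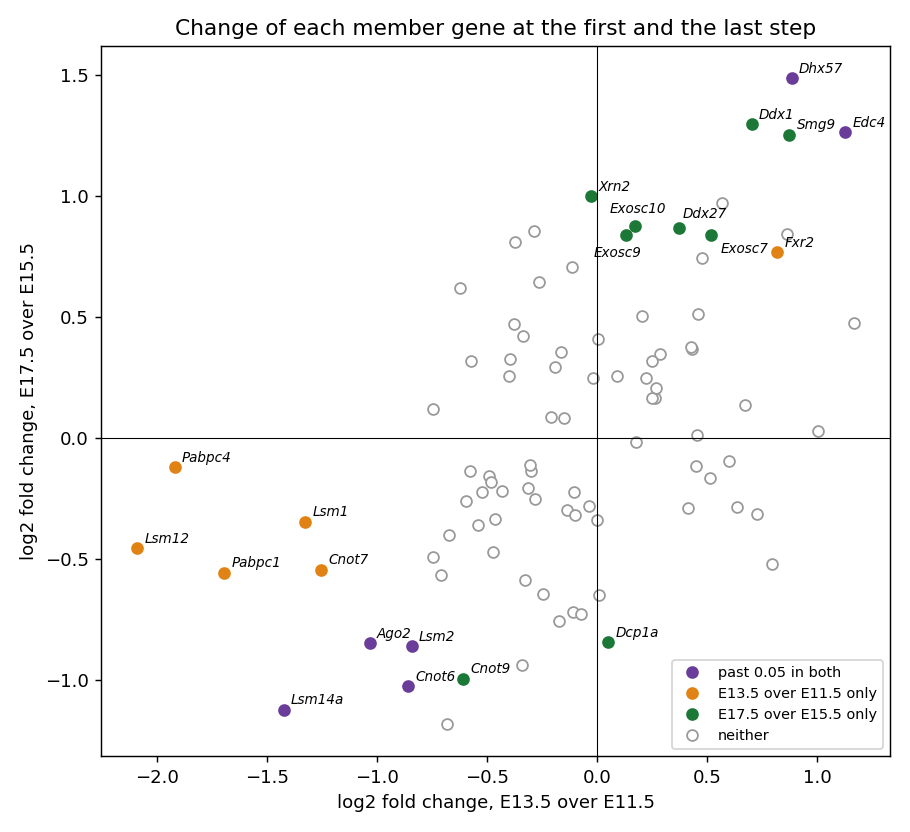
Log2 fold change of each member between E13.5 and E11.5 (horizontal axis) and between E17.5 and E15.5 (vertical axis), coloured by where the adjusted p was under 0.05. Dhx57 and Edc4 lie at the upper right, and Lsm14a, Ago2, Cnot6 and Lsm2 at the lower left.

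Other genes of these pathways, which the symbols above do not match, were taken from a list of 71, of which 47 had a row. In the joint test of stages 24 of the 47 (51.06%) differed, near the 54.9% of all genes tested. Between E17.5 and E11.5, 7 (14.89%) were higher and 18 (38.3%) lower, against 29.8% and 28.8% of all genes tested, with a median log2 change of -0.41. Zfp36l1, which brings AU-rich messengers to deadenylation, had 34.7, 40.3 and 32.7 CPM at E17.5, against 660.4, 1089 and 773 CPM at E11.5 (-4.55 ± 0.30). Igf2bp2, an RNA-binding protein of growing tissue, had 59.3 to 84.9 CPM at E17.5, against 1516 to 2557 CPM at E11.5 (-4.82 ± 0.31). Skiv2l, the helicase that feeds RNA to the cytoplasmic exosome, rose, with 161 to 322 CPM at E17.5, against 23.4 to 32.2 CPM at E11.5 (3.15 ± 0.36). Lin28b, a repressor of let-7 maturation, had 0.893, 0.955 and 1.30 CPM at E13.5, against 73.0, 111.1 and 157 CPM at E11.5.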

How the data were processed

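Libraries were made from STAU2 immunoprecipitates and inputs after ribosomal RNA removal, with a strand-marking kit, per the labels' protocols. The authors deposited whole-number counts per peak and strand in 12 columns. HOMER 4.10 and the builds mm10 and GRCm38 are named in the submitters' processing notes. For the aligner and the counting settings, the version and options were not given in the sources used here.

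Counts were summed per gene over rows outside introns and intergenic space (7702 genes, 13749 rows). The 4513 intergenic rows, which hold only even values, and 124 rows that name no gene were not used. Genes and peaks were each tested with edgeR 4.0.16 in R 4.3.3 (TMM, filterByExpr, quasi-likelihood F test, Benjamini-Hochberg adjustment at 0.05), with all 12 libraries in 1 fit and no replicate block. The filter kept 7651 genes and 13656 peaks. SE is the log2 change divided by the square root of F. Unequal change among peaks of a gene was tested with diffSpliceDGE. The procedure was tested on simulated data. Counts ran from 1954160 to 4693793 per library, and the common biological coefficient of variation was 0.295 for genes.

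The alternatives were scaling by totals, no low-count filter, Intron rows added, a replicate block, DESeq2 1.42.0, and leaving out each library in turn.

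Named were the 6 largest rises and falls per comparison among called members whose libraries do not overlap, the 10 highest levels, the 6 smallest stage effects and a fixed set. Other members were named after their values were seen, to complete the calls of a role. Some members are counted but not reported here by name. The members and lists were chosen with earlier results of these data known. Sequences were read from GENCODE transcripts of GRCm38.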

Additional observations from a re-analysis of the deposited data

How the results depend on the processing

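No named result changed direction while called. Without the low-count filter, each of the 276 values of named or called members stayed on its side of the threshold, and DESeq2 added 8 calls among them and lost 0. Scaling by totals gave 15 members and 1966 genes higher and 442 genes lower at E13.5 against E11.5, and 32 members higher at E17.5 against E11.5. Among member peaks it gave 10 higher at E13.5 against E11.5 and 6 higher at E17.5 against E15.5. DESeq2 called 1 member lower at E15.5 against E13.5, and 58 genes higher and 85 lower there. The cause of these differences was not tested. The samples were not treated as paired by replicate number, since not every same-number pair correlated: 11 of 18 same-number pairs of libraries had a correlation of deviations over 0.1, with a range of -0.184 to 0.511, and 6 of 12 libraries correlated best with their own number. By number, 1 of 6 pairs was over 0.1 for replicate 1, 6 of 6 for replicate 2 (0.122 to 0.511) and 4 of 6 for replicate 3, a hint from the data and not the design. With a replicate block, 2 member peaks were higher at E13.5 against E11.5 and 2 members were called for unequal peaks. Leaving out 1 library at a time gave, for members higher and lower, 0 to 3 and 7 to 9 (E13.5 against E11.5), 0 and 0 (E15.5 against E13.5), 4 to 10 and 2 to 5 (E17.5 against E15.5), and 18 to 23 and 19 to 26 (E17.5 against E11.5), with 31 to 38 in the joint test of stages. For all genes it gave 814 to 1093 and 557 to 926, 2 to 16 and 11 to 44, 480 to 767 and 639 to 942, and 2057 to 2325 and 1992 to 2236 in the same order. For member peaks it gave 1 to 2 and 15 to 24 at the first step, 3 to 13 and 1 to 3 at the last, 30 to 38 and 49 to 59 over the whole interval, and 0 to 2 genes called for unequal peaks. The joint test called 3769 to 4225 genes. E15.5 replicate 1 moved the last step most: without it, 4 members were higher and 2 lower. Members with few counts, such as Ddx54 and Cpeb2, limit what can be detected at this depth.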

Other observations

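Ddx39b and Pum3 each have 1 intron row in the table that the comparisons leave out. The Ddx39b row, chr17:35250008-35250412, held 7397 counts over the 12 libraries, between 149 and 1132 in each. The Pum3 row, chr19:27429159-27429593, held 330 counts, between 16 and 46 in each.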
